A study of Mus musculus with 48 samples.

Results

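The jejunum was compared with the duodenum in the same mice, using 24 of the 48 libraries of a study of captured methylated DNA from mouse intestine. The 24 libraries are 12 pairs, 1 jejunum and 1 duodenum from each mouse, and the pairing follows the mouse number in the labels. The values are read counts over 95882 regions in all, of which 94535 are autosomal, and 94485 of these were tested. The fit and the adjustment of p took in the other chromosomes too, and the autosomal regions are described. The mice are 7 labelled GermFree, which carry no gut microbes, and 5 labelled ConvR, which the series describes as conventionalised, a term for animals colonised with a conventional microbiota. The strain, age and sex of the mice were not among the labels used, and the tissue is labelled intestine without separation of cell types. No RNA was measured, so the section labels could not be checked against expressed marker genes.

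The duodenum receives bile and pancreatic juice, carries the mucus-secreting Brunner glands and takes up much of the dietary iron and calcium. The jejunum follows it and absorbs most sugars, amino acids and fats. In mammals a methyl group is added to cytosine mainly where cytosine precedes guanine, a CG pair. Such methylation is copied at cell division, is largely shared between tissues, and differs between cell types most often at enhancers and at CG-poor promoters. The capture protein binds fragments that hold methylated CG pairs, so a higher count means more captured methylated DNA and not a percentage of methylated molecules. In bulk tissue a different mix of cell types and a different methylation within 1 cell type cannot be told apart.

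To show what the capture reads, 4 promoters that overlapped tested regions are printed 5′ to 3′ on the strand of the gene, from RefSeq on GRCm38.p6, with CG pairs in capitals. For Cubn only the last 230 of the 300 printed bases lie in the tested region, so the CG pairs nearest its printed start lie outside it. The regions described for Cubn and Slc8a1 overlap the promoter windows of these genes, Pnlip encodes a pancreatic enzyme, and Peg3 is an imprinted gene, methylated on the maternal copy. The windows, each of 250 bases before and 50 after the gene start, are chr2:13491827-13492126 on the minus strand for Cubn, chr17:81738338-81738637 on the minus strand for Slc8a1, chr19:58670115-58670414 on the plus strand for Pnlip and chr7:6730370-6730669 on the minus strand for Peg3.
Cubn: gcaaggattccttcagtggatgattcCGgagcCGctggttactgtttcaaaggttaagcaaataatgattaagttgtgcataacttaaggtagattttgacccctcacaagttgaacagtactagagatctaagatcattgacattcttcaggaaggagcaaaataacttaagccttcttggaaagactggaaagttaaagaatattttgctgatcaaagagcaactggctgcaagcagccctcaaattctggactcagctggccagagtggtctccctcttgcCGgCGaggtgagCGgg
Slc8a1: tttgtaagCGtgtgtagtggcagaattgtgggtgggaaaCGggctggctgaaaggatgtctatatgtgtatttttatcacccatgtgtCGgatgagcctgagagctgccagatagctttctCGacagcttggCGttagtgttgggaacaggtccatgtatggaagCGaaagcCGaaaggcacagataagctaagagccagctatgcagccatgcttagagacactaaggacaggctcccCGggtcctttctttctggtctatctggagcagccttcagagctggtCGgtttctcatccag
Pnlip: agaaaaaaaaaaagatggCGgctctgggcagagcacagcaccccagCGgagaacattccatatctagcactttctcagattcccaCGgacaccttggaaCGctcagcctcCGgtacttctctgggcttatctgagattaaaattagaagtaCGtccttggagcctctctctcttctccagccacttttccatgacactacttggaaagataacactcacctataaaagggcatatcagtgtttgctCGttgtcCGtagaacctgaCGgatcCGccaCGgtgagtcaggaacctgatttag
Peg3: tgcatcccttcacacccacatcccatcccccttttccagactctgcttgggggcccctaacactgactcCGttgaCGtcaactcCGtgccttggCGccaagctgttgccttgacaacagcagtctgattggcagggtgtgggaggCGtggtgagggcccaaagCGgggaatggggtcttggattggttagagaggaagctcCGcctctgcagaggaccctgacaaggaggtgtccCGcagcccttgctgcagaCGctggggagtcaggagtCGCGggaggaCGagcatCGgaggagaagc
They hold 5 CG pairs in Cubn, 9 in Slc8a1, 11 in Pnlip and 13 in Peg3. Of 31396 autosomal promoter windows in the same table, 62.4% hold at least as many as Cubn and 38.5% at least as many as Peg3, against a median of 7.

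Captured DNA was close to equal in the jejunum and the duodenum at nearly all regions. Levels are given in CPM, the share of a library's counts that fall in a region, multiplied by 1e+06 after scaling between libraries. The median difference, jejunum minus duodenum, was 0.00 on the log2 scale over 94485 tested autosomal regions, and 5% of them lay below -0.28 and 5% above 0.27. Library totals ran between 1227571 and 3033782 counts, centred on a median of 2149270, and within a library the median count of a region was between 9 and 23. The median 95% interval of a region reached 0.31 to each side of its estimate, and for 99.8% of regions the whole interval lay within a 2-fold change. For 69.3% of regions the whole interval lay within 0.5 on the log2 scale to either side of 0. These intervals are those of the edgeR fit and depend on the tool. At the 4 regions with a printed promoter, the standard error (SE) ran from 0.096 to 0.153 in edgeR and from 0.133 to 0.208 in DESeq2. The counts of a jejunum library had a Pearson correlation of 0.768 to 0.881 with the duodenum library of the same mouse on the log2 scale, and pairs of different mice of the same section and model had one of 0.759 to 0.882.

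At an adjusted p under 0.05 (edgeR quasi-likelihood test with the mouse as a block, Benjamini-Hochberg adjusted over all tested regions), 22 autosomal regions differed, 0.0233% of those tested. Of these, 21 were lower in the jejunum (0.0222%) and 1 was higher (0.00106%). Without adjustment 5014 regions had a p under 0.05, 5.31% of those tested. DESeq2 with the same block made no call and gave 1038 unadjusted p under 0.05 (1.1%). A robust estimate of the spread, added after seeing the data, gave 19 edgeR calls (0.0201%). Without ConvR mice 1 and 3 there were 0 calls and 4714 unadjusted p under 0.05 (4.99%). Of the 21 regions called lower, 4 still passed without ConvR mouse 1 and 12 without ConvR mouse 3. The size of the difference was similar at some of the called regions without both mice, as at Ankrd33b (0.86, against 0.91 with all mice) and Stx12 (-0.86, against -0.79), and was smaller at others, as at Fut8 (-0.34, against -0.88).

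**Figure D1:**
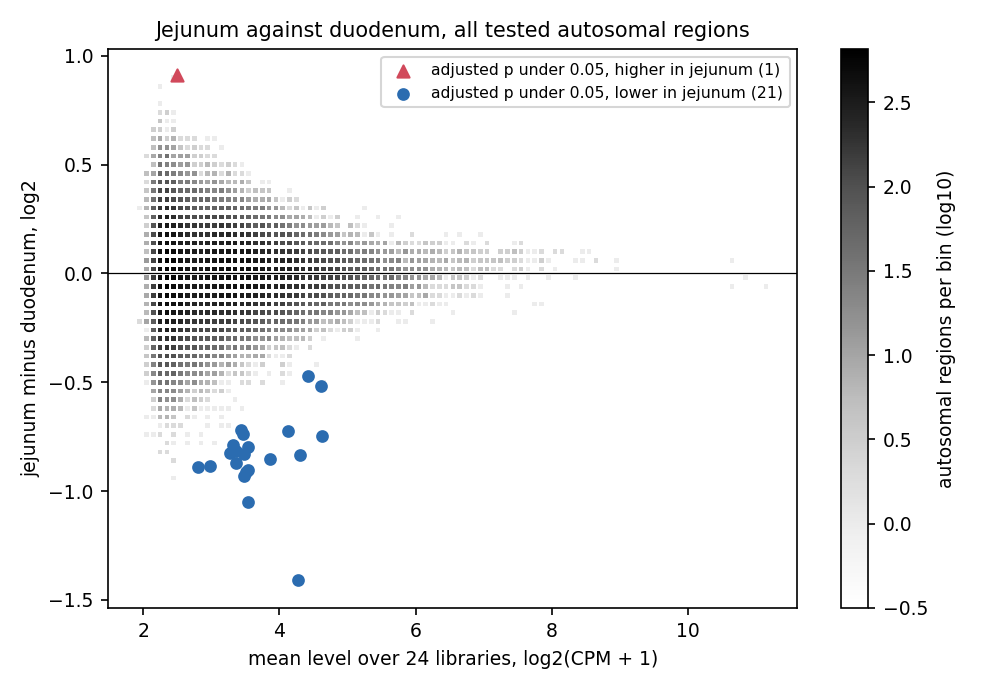
Log2 difference, jejunum minus duodenum (vertical axis), against the mean level over 24 libraries in log2 of CPM plus 1 (horizontal axis), with grey squares shaded by the number of autosomal regions in each bin. The 21 regions called lower in the jejunum (blue) lie between -1.41 and -0.47, and the 1 called higher (red) lies at 0.91.

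The region with the largest and most strongly called difference lies in Gm34259, a long non-coding RNA gene of unknown role, at chr17:4625871-4626954. In GermFree mice its level had a lowest, median and highest value of 2.87, 4.05 and 15.9 CPM in the jejunum, and 3.62, 6.85 and 26.4 CPM in the duodenum. In ConvR mice 1 to 5 it was 31.2, 3.51, 28.75, 5.42 and 4.79 CPM in the jejunum, and 132, 7.73, 104, 3.27 and 16.05 CPM in the duodenum. The level was far higher in ConvR mice 1 and 3 than in the other mice in both sections, the groups overlapped, and 9 of 12 mice were lower in the jejunum. The difference was -1.41 on the log2 scale (SE 0.13, adjusted p = 7.11e-19, edgeR). Without ConvR mice 1 and 3 it was -0.83 (SE 0.18, adjusted p = 0.0904, edgeR). With all mice DESeq2 gave -1.01 (SE 0.27), and the region did not pass there. Each SE is that of the fitted model. By mouse, the difference in log2 of CPM plus 1 ran from -2.04 to 0.59.

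2 called regions overlap genes of the 7SL RNA, the RNA part of the signal recognition particle, which brings newly made secreted proteins to the endoplasmic reticulum. Copies of the 7SL RNA and repeats derived from it are near-identical across the genome, so reads could be split between them, and these 2 regions are uncertain. At Rn7s2 (chr12:69360834-69363164), the level in GermFree mice had a lowest, median and highest value of 4.92, 7.999 and 30.0 CPM in the jejunum and 7.37, 9.22 and 43.4 CPM in the duodenum. ConvR mice 1 to 5 had 37.5, 9.74, 58.7, 5.91 and 12.2 CPM in the jejunum and 130, 5.62, 94.0, 5.14 and 21.2 CPM in the duodenum. Again ConvR mice 1 and 3 stood above the rest in both sections, and 9 of 12 mice were lower in the jejunum, with a difference of -0.75 on the log2 scale (SE 0.11, adjusted p = 7.27e-07, edgeR). The second region spans Rn7s1 and Rps29, a protein of the small ribosomal subunit (chr12:69157717-69159965). Its difference was -0.47 (SE 0.11, adjusted p = 0.0432, edgeR), lower in the jejunum in 7 of 12 mice, and leaving out any of 6 single mice ended the call.

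Of the other regions called lower, 6 had no gene within 5 kb. The most strongly called of these, chr11:25099788-25100588, had a lowest, median and highest level of 3.28, 5.78 and 20.2 CPM in the jejunum of GermFree mice and 4.53, 6.46 and 34.1 CPM in their duodenum. The level in ConvR mice 1 to 5 was 42.6, 6.62, 41.3, 4.93 and 12.6 CPM in the jejunum, and 99.0, 4.57, 77.65, 2.34 and 21.5 CPM in the duodenum. The difference was -0.83 (SE 0.12, adjusted p = 1.68e-07, edgeR), and it stayed past the threshold when any single mouse was left out. Within GermFree mice its difference was of similar size, -0.86 (SE 0.19), and 6 of 7 of them were lower in the jejunum, but it did not pass there (adjusted p = 0.240, edgeR). A second region without a near gene, chr8:121687912-121688704, was the one region whose difference without ConvR mice 1 and 3 came nearest to passing, at -0.79 (SE 0.16, adjusted p = 0.0505, edgeR), against -0.73 (SE 0.12) with all mice.

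Among regions called lower within protein-coding genes were introns or exons, which the gene table used here does not separate, of Auts2, a regulator of neuronal development, Fut8, the enzyme that adds core fucose to glycoproteins, and Cacng2, a partner of glutamate receptors in neurons. Others lay in Gak, a kinase of clathrin uncoating, Stx12, a protein of endosome fusion, and Zfp266, a zinc finger protein. At Auts2 (chr5:131519367-131520156) the level in GermFree mice had a lowest, median and highest value of 2.67, 4.65 and 7.97 CPM in the jejunum and 4.61, 6.48 and 15.5 CPM in the duodenum. In ConvR mice 1 to 5 it was 21.0, 4.28, 22.8, 4.93 and 3.48 CPM in the jejunum and 51.5, 4.22, 36.1, 2.34 and 11.9 CPM in the duodenum. The difference was -0.80 (SE 0.15, adjusted p = 8.51e-04, edgeR), lower in the jejunum in 9 of 12 mice, with the groups overlapping. Fut8 (chr12:77261218-77261986) had a difference of -0.88 (SE 0.19, adjusted p = 0.0166, edgeR) and a region within the immunoglobulin kappa locus Igk (chr6:69516027-69516751), which encodes antibody light chains, one of -0.89 (SE 0.20, adjusted p = 0.0271, edgeR), each lower in the jejunum in 10 of 12 mice. Leaving out ConvR mouse 1 or ConvR mouse 3 ended both calls.

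The single region called higher in the jejunum lies in Ankrd33b, a gene for an ankyrin repeat protein (chr15:31297196-31297989). In GermFree mice its lowest, median and highest level was 2.87, 5.07 and 7.87 CPM in the jejunum and 1.38, 3.55 and 4.74 CPM in the duodenum. ConvR mice 1 to 5 had 7.00, 8.18, 7.79, 6.90 and 4.79 CPM in the jejunum and 4.91, 3.16, 1.36, 3.74 and 2.57 CPM in the duodenum. Here 11 of 12 mice were higher in the jejunum. By mouse, the difference in log2 of CPM plus 1 ran from -0.57 in GermFree mouse 7 to 1.89 in ConvR mouse 3. The second largest was 1.33, in GermFree mouse 1. The fitted difference was 0.91 (SE 0.21, adjusted p = 0.0398, edgeR). It rests on a median of 11.5 counts per jejunum library and 7.5 per duodenum library, and leaving out any of 10 single mice ended the call. As fewer than 5 regions passed in this direction, the 4 with the next smallest p are given as not passing. They lie in Pigu, part of the enzyme that attaches lipid anchors to proteins (0.86, SE 0.22, adjusted p = 0.225, edgeR), and in Crot, a peroxisomal enzyme of fatty acid breakdown (0.60, SE 0.16, adjusted p = 0.313, edgeR). The other 2 lie in Mcu, the calcium channel of mitochondria (0.57, SE 0.15, adjusted p = 0.339, edgeR), and in Pde4a, which degrades cyclic AMP (0.51, SE 0.14, adjusted p = 0.359, edgeR).

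**Figure D2:**
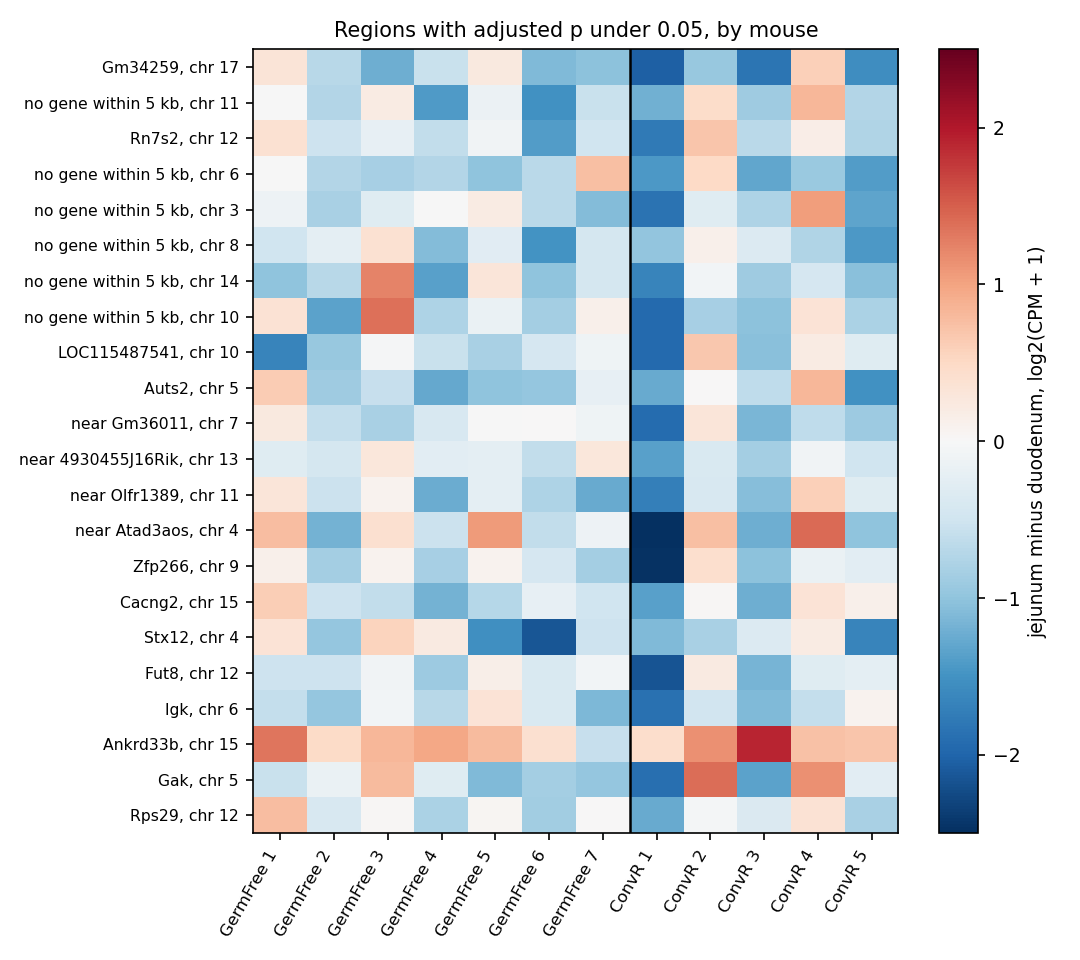
Log2 difference, jejunum minus duodenum, of CPM plus 1 (colour) at the 22 called regions (rows, ordered by p) in each of 12 mice (columns, 7 GermFree and 5 ConvR). All 21 regions called lower are blue in ConvR mice 1 and 3 and in GermFree mouse 2, while ConvR mouse 4 is blue in 8 of them and ConvR mouse 2 in 9.

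The 21 regions called lower moved together by mouse. They were all lower in the jejunum in ConvR mice 1 and 3 and in GermFree mouse 2, 20 of them in GermFree mice 4 and 6, and 19 in ConvR mouse 5. In ConvR mice 2 and 4 and GermFree mice 1 and 3, 8 to 10 of the 21 were lower. Summed over the 21 regions, the level in ConvR mouse 1 was 433 CPM in the jejunum and 1373 CPM in the duodenum, and in ConvR mouse 3 it was 568.3 CPM in the jejunum and 1091 CPM in the duodenum. Both mice were the 2 highest of 12 at all 21 regions in the duodenum. In the other 10 mice the sum had a lowest, median and highest value of 86.1, 111 and 273 CPM in the jejunum and 88.8, 120 and 438 CPM in the duodenum, and 7 of the 10 were lower in the jejunum. Those of ConvR mice 1 and 3 were the 2 shallowest duodenum libraries of all, with 1227571 and 1438806 counts, and the part of depth in the result was not tested. Without these 2 mice the differences of the 21 regions were all still below 0, with a median of -0.48 and 15 unadjusted p under 0.05, and none passed (smallest adjusted p = 0.0505, edgeR). Within GermFree mice they were also all below 0, with a median of -0.56 and 16 unadjusted p under 0.05, and none passed. The remaining mice took part in the choice of these regions, so their direction is a description and not a separate test.

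The same mice had high sums in the ileum, and lower ones in the colon. Through the duodenum, jejunum, ileum and colon the sum in ConvR mouse 1 was 1373, 433, 1407 and 338 CPM, and in ConvR mouse 3 it was 1091, 568.3, 705 and 197 CPM. In the other 10 mice the median was 120 CPM in the duodenum, 111 CPM in the jejunum, 105 CPM in the ileum and 128 CPM in the colon. In the colon these 10 mice lay between 105 and 212 CPM, a range that holds ConvR mouse 3. In ConvR mice 1 and 3 the jejunum was below the duodenum and the ileum.

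**Figure D3:**
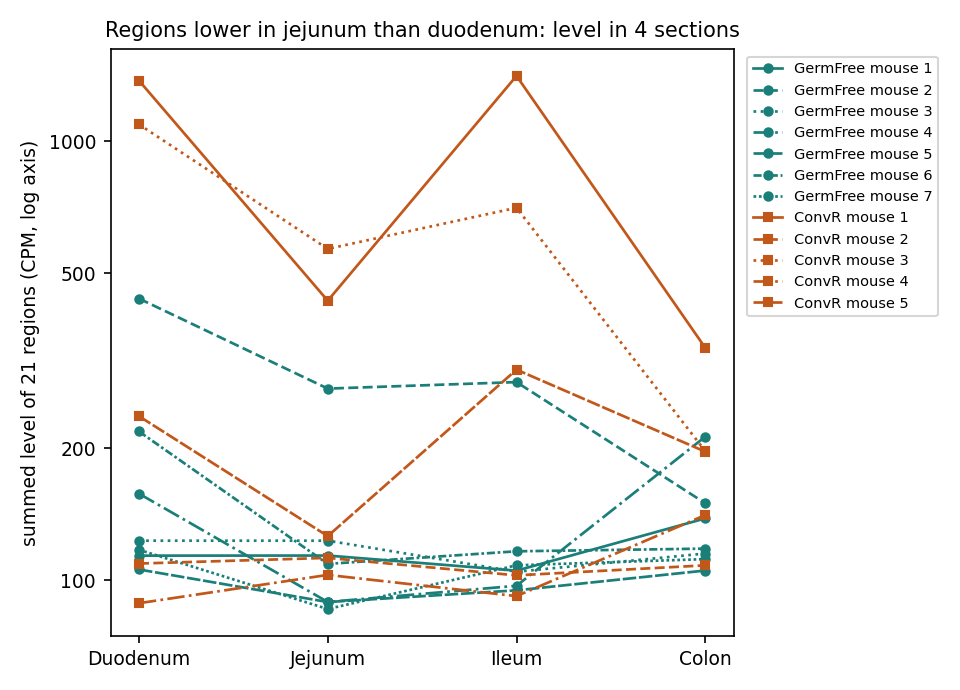
Summed level of the 21 regions called lower in the jejunum (vertical log axis, CPM) through 4 sections (horizontal axis), 1 line per mouse, green circles for GermFree and orange squares for ConvR. ConvR mouse 1 (1373 CPM in the duodenum) and ConvR mouse 3 (1091 CPM) stand above the other 10 mice in the duodenum, where these lie between 88.8 and 438 CPM, while in the colon ConvR mouse 3 (197 CPM) lies within their range of 105 to 212 CPM.

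The regions called lower shared features that the test did not use. The score that the authors gave each region had a median of 298 in them (12 to 1693), against 10 for all tested autosomal regions. Their median width was 784 bp, against 1207 bp for all tested autosomal regions, and 17 of 21 (81.0%) were between 700 and 850 bp wide, against 6.25% of all. The 700 to 850 bp window was not part of the planned comparisons and lies around the median of these same regions, so this contrast is a description. They lay on 14 chromosomes, and no 2 called regions lay within 100 kb of each other. Of the 21, 7 (33.3%) overlapped a protein-coding gene, against 60.9% of tested regions, in a comparison not matched for width. None overlapped a RefSeq promoter window, but with 2.56% of tested regions doing so, 21 regions are too few to show a lack. Over the 2423 tested regions that overlap a promoter window there was no call (edgeR and DESeq2 alike), 124 (5.12%) had an unadjusted p under 0.05, close to the 5.31% of all regions, and the median log2 difference was -0.01.

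The gene lists cover transcription factors, absorption, cell types and pathways of the gut. No region near any gene of the 34 lists passed in either direction with edgeR or DESeq2, over 2300 tested regions within 5 kb of a listed gene, against 0.0233% called among all tested regions. List medians ran from -0.07 for Paneth cells and antimicrobial genes to 0.23 for Hox genes, against 0.00 for all tested regions. The smallest adjusted p of a listed region was 0.124 (edgeR), at Notch2, a receptor that steers cell fate in the crypts (chr3:98111153-98113281). It averaged 13.4 ± 4.08 CPM in the jejunum and 19.6 ± 14.4 CPM in the duodenum (SD, 12 mice each), a difference of -0.46 (95% interval -0.68 to -0.24), and 8 of 12 mice were lower in the jejunum. Without ConvR mice 1 and 3 that difference was -0.22. Among intestinal transcription factors 11 of 110 regions had an unadjusted p under 0.05, 2 higher and 9 lower in the jejunum, with a median of -0.03, and none passed. Of all 94485 tested regions 5.31% had such a p, 2299 higher and 2715 lower.

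Among 20 regulators that set the identity of the upper gut, 16 had a tested region, with 87 regions, a median log2 difference of -0.02 and an unadjusted p under 0.05 at 3.45% of regions against 5.31% of all. At Pdx1, the homeodomain factor of duodenum and pancreas (chr5:147272206-147273119, near the gene's end), the lowest, median and highest level in GermFree mice was 4.09, 4.89 and 11.02 CPM in the jejunum and 1.08, 4.98 and 7.02 CPM in the duodenum. The level in ConvR mice 1 to 5 was 5.73, 7.40, 4.19, 3.94 and 6.53 CPM in the jejunum and 2.45, 4.22, 2.04, 4.67 and 3.21 CPM in the duodenum. The groups overlapped, and the log2 difference of 0.63 (95% interval 0.24 to 1.012) did not pass (adjusted p = 0.672, edgeR).

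Hox genes, which encode position along the body axis, were thinly covered: of 39 genes, 7 had a tested region within 5 kb, with 5 regions in all. The region at Hoxd3 (chr2:74747475-74748165) had a lowest, median and highest level of 4.09, 5.74 and 7.61 CPM in the jejunum of GermFree mice and 1.08, 3.10 and 5.89 CPM in their duodenum. In ConvR mice 1 to 5 it was 7.00, 7.01, 2.99, 5.91 and 3.92 CPM in the jejunum and 4.09, 2.11, 2.72, 5.14 and 2.25 CPM in the duodenum. It was higher in the jejunum in 10 of 12 mice, with overlapping groups and a difference of 0.74 (95% interval 0.33 to 1.15, adjusted p = 0.458, edgeR, not passing). The regions at Hoxd4, and at Hoxa3 with Hoxa5, had differences of 0.23 and -0.15.

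Genes of Brunner glands, the glands of the duodenal wall, had the highest median after the Hox genes, 0.12 over 36 regions at 12 genes, with an unadjusted p under 0.05 at 5 regions, all higher in the jejunum. Beside this, 5.31% of all tested regions had such a p. They include a region near Pigr, the transporter of IgA (0.46, 95% interval 0.09 to 0.84), and regions in Muc6, a gland mucin (0.22, 0.04 to 0.40), Fut9, a fucosyltransferase (0.47, 0.09 to 0.85), and Dmbt1, a mucosal defence protein (0.45, 0.01 to 0.88), and none passed (adjusted p = 0.848, 0.851, 0.851 and 0.937, edgeR). At Muc6 (chr7:141638006-141640456) the lowest, median and highest level in GermFree mice was 20.9, 24.01 and 30.1 CPM in the jejunum and 20.2, 24.45 and 30.9 CPM in the duodenum. ConvR mice 1 to 5 had 21.0, 28.4, 25.15, 26.1 and 23.5 CPM in the jejunum and 13.9, 23.2, 13.6, 16.35 and 16.37 CPM in the duodenum, so that all 5 were higher in the jejunum. Near Pigr (chr1:130856919-130857695) the difference was 1.199 in ConvR mice (SE 0.31, adjusted p = 0.0663, edgeR), and -0.02 (SE 0.24) in GermFree mice. The difference between the models near Pigr did not pass (adjusted p = 0.288, edgeR interaction).

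For iron and calcium absorption, 57 regions at 13 of 17 genes had a median difference of 0.01, with 1 unadjusted p under 0.05 higher in the jejunum and 4 lower (8.77% of regions, against 5.31% of all tested). At Slc8a1, a sodium-calcium exchanger (chr17:81737541-81738738, holding the printed promoter whole), the lowest, median and highest level in GermFree mice was 3.68, 7.38 and 9.33 CPM in the jejunum and 6.32, 8.62 and 13.45 CPM in the duodenum. The level in ConvR mice 1 to 5 was 6.36, 6.23, 5.99, 4.93 and 7.40 CPM in the jejunum and 6.54, 8.79, 7.49, 8.88 and 9.63 CPM in the duodenum, lower in the jejunum in all 5. The difference over all pairs was -0.38 (95% interval -0.69 to -0.08) and did not pass (adjusted p = 0.845, edgeR). Atp2b1, a calcium pump of the cell membrane, had -0.27 (95% interval -0.50 to -0.05), a region within 5 kb of the zinc transporter gene Slc39a4 and overlapping Vps28 had -0.27, and one within 5 kb of Cyp24a1, which degrades active vitamin D, had -0.39. Epas1, the oxygen-sensing factor that controls iron uptake, had 0.35, and Slc46a1, the folate transporter, had 0.16. None of these passed.

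Genes of bile acid and vitamin B12 uptake, used mainly further down in the ileum, had a median of -0.05 over 44 regions at 14 genes. At Cubn, which encodes cubilin, the receptor for vitamin B12 bound to its carrier (chr2:13489168-13492056, covering 230 of the 300 printed promoter bases), the lowest, median and highest level in GermFree mice was 8.63, 14.8 and 17.2 CPM in the jejunum and 15.9, 17.2 and 18.9 CPM in the duodenum. In ConvR mice 1 to 5 it was 11.5, 10.9, 17.4, 13.3 and 13.5 CPM in the jejunum and 17.2, 15.8, 13.6, 14.5 and 16.7 CPM in the duodenum. It was lower in the jejunum in 10 of 12 mice, with overlapping groups, and the difference of -0.32 (95% interval -0.54 to -0.11) did not pass (adjusted p = 0.749, edgeR). Nr1h4, the bile acid receptor FXR, had -0.48 (95% interval -0.86 to -0.09), Muc3, a membrane mucin, had -0.19, and Plb1, a brush-border phospholipase, had 0.29. Guca2b, the hormone uroguanylin, whose region overlaps Gm35761, had 0.18, and Osbpl5, a lipid transfer protein, had 0.30, and none passed.

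Pancreatic acinar genes were listed because pancreas lies against the duodenum and could be taken with it. Over 34 regions at 15 of 26 genes, the median was -0.02 and no region had an unadjusted p under 0.05, against 5.31% of all tested regions. The smallest p in the list belonged to a region in the body of Pnlip, which encodes pancreatic lipase, with a difference of 0.28 (95% interval -0.15 to 0.71). The region that holds the printed Pnlip promoter (chr19:58669901-58673847) averaged 18.5 ± 2.5 CPM in the jejunum and 20.2 ± 5.2 CPM in the duodenum (SD, n = 12 each), a difference of -0.12 (95% interval -0.31 to 0.07). The Peg3 region (chr7:6729038-6730920) averaged 9.69 ± 2.59 CPM in the jejunum and 8.64 ± 1.72 CPM in the duodenum (SD, n = 12 each), a difference of 0.14 (95% interval -0.13 to 0.41), and the 138 regions of imprinted genes had a median of -0.01.

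**Figure D4:**
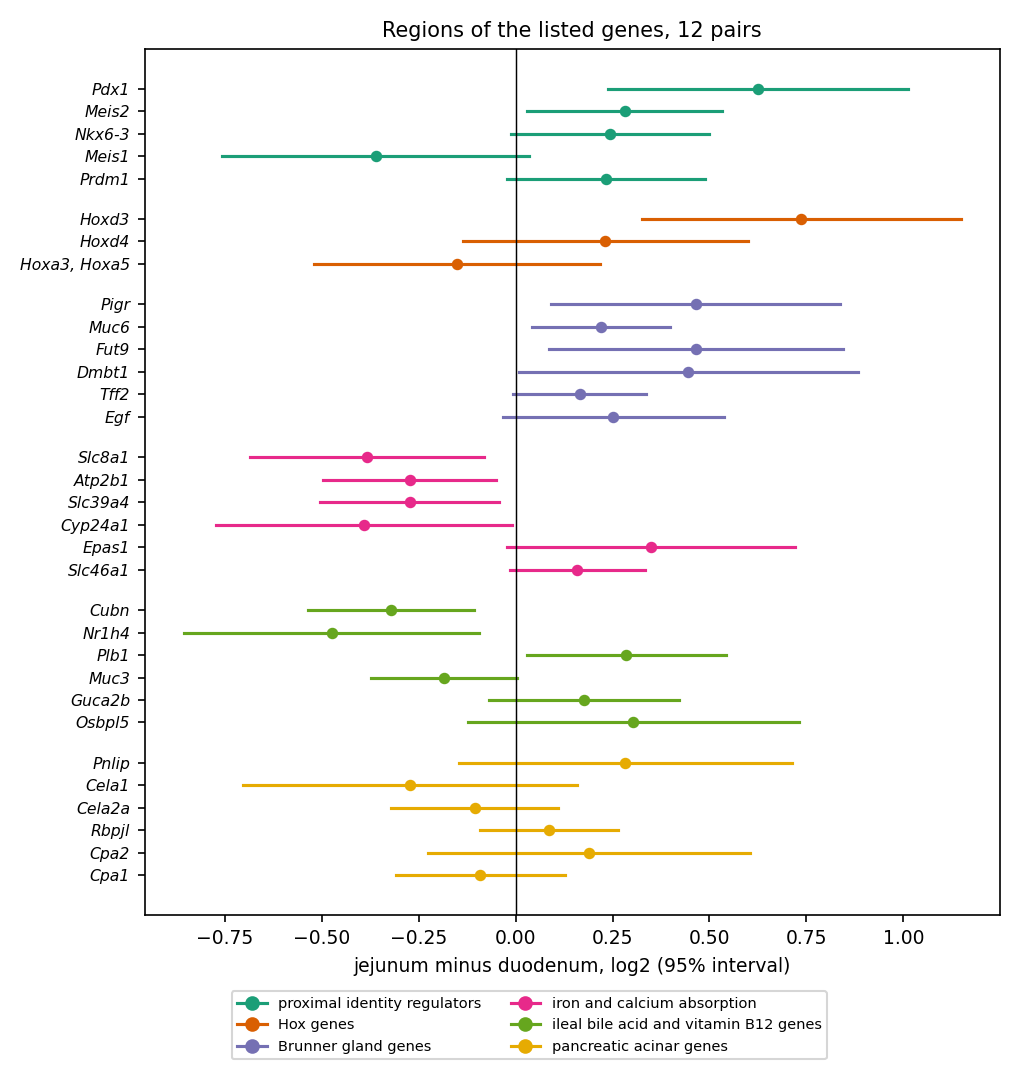
Log2 difference, jejunum minus duodenum, with its 95% interval (horizontal axis) at the region of smallest p of genes of 6 lists, with the lists in colour, 12 pairs. Pdx1, Hoxd3 and the Brunner gland gene Fut9 lie at 0.63, 0.74 and 0.47, Slc8a1 and Cubn at -0.38 and -0.32, and no region shown passed after adjustment.

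Within GermFree mice alone, in the fit over all 24 libraries, no region passed (0.0% of 94485, with 4684 unadjusted p under 0.05, 4.96%), and DESeq2 also made no call (710 unadjusted p under 0.05, 0.751%). The 5 smallest p there were at the intergenic region of chromosome 11 given above, at Ybx3, Casp9 and Mb21d2, and at a region whose nearest gene is Tnfaip3. At Ybx3, a protein that binds RNA and DNA (chr6:131376177-131379628), all 7 GermFree mice were lower in the jejunum, with a lowest, median and highest level of 10.6, 13.8 and 15.93 CPM in the jejunum and 15.85, 19.8 and 34.7 CPM in the duodenum. These groups overlapped at their ends only, and the difference was -0.62 (SE 0.14, adjusted p = 0.240, edgeR). ConvR mice 1 and 3 stood above the other mice at this region too, with 33.7 and 45.5 CPM in the jejunum and 67.1 and 58.6 CPM in the duodenum. A region 37546 bp from Tnfaip3, a brake on inflammatory signalling, had 0.91 (SE 0.22, adjusted p = 0.724, edgeR), and Casp9, a protease that starts cell death, had 0.73 (SE 0.18, adjusted p = 0.884, edgeR).

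Within ConvR mice 51 regions passed (0.054%), 20 higher (0.0212%) and 31 lower (0.0328%) in the jejunum, and 20 of the lower ones were among the 22 described above. Without adjustment 6983 regions (7.39%) had a p under 0.05. Without ConvR mice 1 and 3 no region passed (5185 unadjusted p under 0.05, 5.49%). Of the 31 lower regions, 1 still passed without mouse 1 and 13 without mouse 3. Of the 20 higher regions, 0 still passed in either case. DESeq2 made no call within ConvR mice (1725 unadjusted p under 0.05, 1.82%). The median difference of the 20 higher regions was 0.42 without ConvR mice 1 and 3, against 0.51 with them, and that of the 31 lower regions was -0.38, against -0.99. The remaining ConvR mice took part in the choice of both sets, so these medians are a description and not a separate test. The 20 higher regions were wide, with a median width of 6271 bp, and none was called over both models. Among the genes they overlap were the zinc finger genes Zfp600, Zfp981, Rex2 and Zfp473, the natural killer receptor gene Klra1 and the alpha-macroglobulin gene Mug2. These are members of families of similar copies, between which reads could be split, so their values are uncertain. The region at Gm38510 (chr1:85188420-85202004) had the smallest p among them: in ConvR mice 1 to 5 it held 113, 124, 120, 123 and 104 CPM in the jejunum and 87.5, 85.7, 57.9, 99.5 and 77.3 CPM in the duodenum. The jejunum values all lay above the duodenum values, lowest of all in the duodenum of mouse 3, and the difference was 0.52 (SE 0.10, adjusted p = 0.00191, edgeR). In GermFree mice it was -0.04 (SE 0.08).

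Whether the jejunum-duodenum difference, sign included, was unequal between the models was tested as that in GermFree minus that in ConvR mice. No region passed (0.0%, with 6386 unadjusted p under 0.05, 6.76%), with a smallest adjusted p of 0.0530 (edgeR), and DESeq2 made no call (1458 unadjusted p under 0.05, 1.54%). Without ConvR mice 1 and 3 there was also no call (5257 unadjusted p under 0.05, 5.57%). Other settings gave up to 5 calls, and leaving out single mice gave 0 to 18, the most without GermFree mouse 6. At Mb21d2, a gene of poorly known role (chr16:28888509-28891801), all 7 GermFree mice were higher in the jejunum, with a lowest, median and highest level of 18.6, 22.1 and 23.0 CPM there and 10.9, 14.03 and 18.4 CPM in the duodenum, without overlap. ConvR mice 1 to 5 had 19.7, 13.6, 17.97, 16.8 and 17.4 CPM in the jejunum and 24.5, 21.1, 21.8, 19.2 and 24.1 CPM in the duodenum, and all 5 were lower in the jejunum. The difference between models was 0.92 on the log2 scale (SE 0.20, adjusted p = 0.0530, edgeR). In the other direction, an intergenic region at chr10:57440491-57447957 had a difference between models of -0.66 (SE 0.13, adjusted p = 0.0530, edgeR), with all 5 ConvR mice higher in the jejunum and 5 of 7 GermFree mice lower.

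The colon and the ileum of the same mice gave a yardstick from libraries that the jejunum and duodenum do not share. There 3193 autosomal regions passed (3.38%), 1989 higher (2.11%) and 1204 lower (1.27%) in the colon. At the 1989 regions higher in the colon, the median jejunum-duodenum difference was 0.05 and 71.9% of regions were above 0, against 49.6% of all tested regions. In GermFree mice 28.6% of the 1989 were above 0, in ConvR mice 86.9%, and without ConvR mice 1 and 3 it was 51.7%. At the 1204 regions lower in the colon, the median was -0.07 and 69.4% were below 0. Without ConvR mice 1 and 3, 61.7% of the 1204 were below 0. Above 0 were 49.4% of them in GermFree mice and 21.7% in ConvR mice. Of the 22 called regions 13 were among these 1204, and 0 were left without ConvR mice 1 and 3. Both comparisons hold these 2 mice. Summed over the 21 regions called lower, they had 1407 and 705 CPM in the ileum and 338 and 197 CPM in the colon. The overlap is thus not separate evidence. Averaged over the 1989 regions, the difference in log2 of CPM plus 1 was -0.06 ± 0.17 (SD) in the 7 GermFree mice and 0.25 ± 0.21 (SD) in the 5 ConvR mice, with 4 of 7 GermFree mice and 5 of 5 ConvR mice above 0. Over the 1204 regions it was 0.00 ± 0.07 (SD) in the 7 GermFree mice and -0.17 ± 0.13 (SD) in the 5 ConvR mice, and this difference between models was not tested. ConvR mouse 3 was the farthest from 0 in both sets, and without ConvR mice 1 and 3 the medians over all remaining pairs were 0.00 and -0.04. Neighbouring regions are not independent, and no test was made on these counts.

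**Figure D5:**
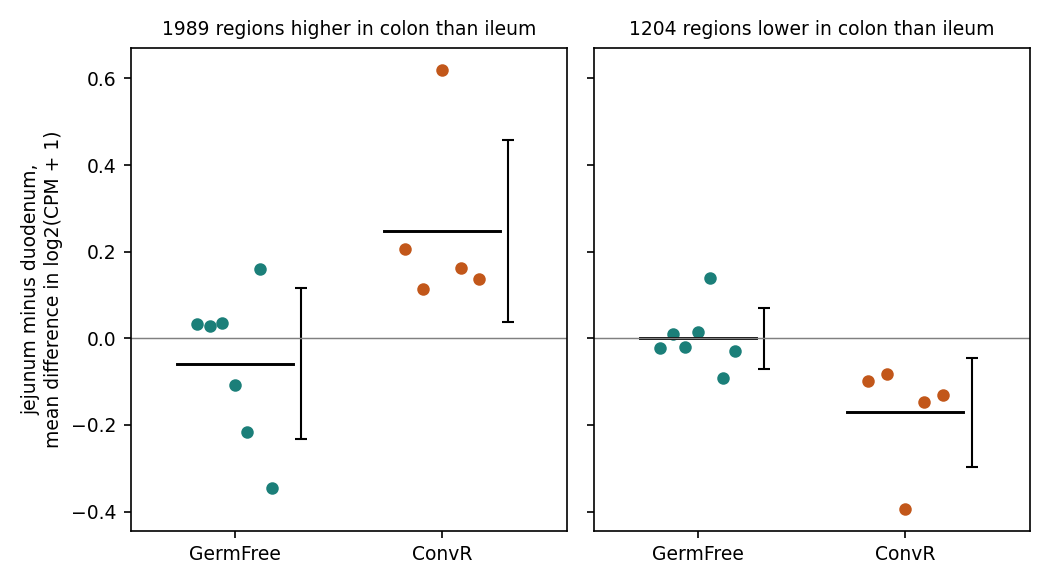
Mean difference, jejunum minus duodenum, in log2 of CPM plus 1 (vertical axis) over the regions higher (left) or lower (right) in colon than ileum, 1 point per mouse, with the mean (line) and SD (bar) of 7 GermFree and 5 ConvR mice. All 5 ConvR mice lie above 0 on the left and below 0 on the right, with ConvR mouse 3 at 0.62 and -0.39.

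No difference between the sections in the share of counts held by a class of regions passed (exact two-sided sign-flip test over 12 pairs, Benjamini-Hochberg adjusted over 6 classes, smallest p possible 4.88e-04). Regions within 1 kb of a gene end held 21.7 ± 0.1% of counts in the jejunum and 21.7 ± 0.1% in the duodenum (SD, n = 12 each, exact adjusted p = 0.794). Gene bodies away from the ends held 52.0 ± 0.4% in the jejunum and 52.1 ± 0.8% in the duodenum (SD, n = 12 each, exact adjusted p = 0.827). Regions outside genes held 26.3 ± 0.3% in the jejunum and 26.1 ± 0.7% in the duodenum (SD, n = 12 each, exact adjusted p = 0.794). The mean difference in the share outside genes, jejunum minus duodenum, was -0.142 percentage points in GermFree mice, with 4 of 7 above 0, and 0.647 percentage points in ConvR mice, with 5 of 5 above 0. Regions of 5 kb or more, and those of the X and Y chromosomes, gave exact adjusted p values of 0.921, 0.974 and 0.794.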

How the data were processed

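Methylated DNA was sheared to about 250 bp, captured with a methyl-CpG-binding domain kit and sequenced as 100 bp single reads, per the labels' protocols. Per the submitters' processing notes, Trim Galore 0.3.7, cutadapt 1.4.2, MACS2 and featureCounts were used with mm10. For the aligner, duplicate reads and reads matching several places, the sources used here give nothing. Every region is named after GermFree, which leaves unclear whether peaks were called on ConvR libraries. The deposited table holds the authors' read counts per region, with no normalisation. The deposited peak list holds the authors' score for each region, which served to filter regions in an alternative and to describe the called regions.

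Counts were tested with edgeR 4.0.16 in R 4.3.3 on the 24 jejunum and duodenum libraries (TMM scaling, default count filter, mouse as a block, threshold 0.05). Models were compared by an interaction in that fit. Log2 differences of the fits are fitted coefficients with no prior count, and printed levels are TMM-scaled CPM over all 48 libraries. DESeq2 1.42.0 was an alternative. The scripts were tested on simulated counts. Same-numbered libraries come from the same mouse. Their deviations from group means had correlations of -0.0275 to 0.0600 in the 12 mice. No 2 libraries held identical values. Intervals are 95% and cover the spread in the fitted model.

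Regions were matched to RefSeq genes of GRCm38.p6, the assembly known as mm10, by overlap or within 5 kb, without strand or exons. Of 720 genes in 34 lists, 714 matched by symbol. The lists, the members and the rule for naming regions were chosen with earlier results of these data known. The rule took, in each direction, the 10 called regions of at least 1 CPM with the largest difference and the 10 with the smallest p, or the 5 smallest p where fewer than 5 passed. It also took the 5 smallest p of each model and of their difference, and up to 6 genes for each of 6 lists. Colon-ileum regions and the other regions named among those called were chosen after their values were seen. Alternatives covered pairing, tool, scaling, filters, libraries and each mouse left out. Other lists are covered by the range of medians. The sources do not say whether mice shared a cage or litter. Some results of the rule are not reported here.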

Additional observations from a re-analysis of the deposited data

Results flagged for a closer look

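In GermFree mice the sum over the 21 regions called lower in the jejunum was far from the other mice in GermFree mouse 2, at 273 CPM in the jejunum, where the next mouse had 123 CPM, and at 438 CPM in the duodenum, where the next had 218 CPM. The duodenum library of GermFree mouse 6 held 2715860 counts, against 2228570 in the next GermFree duodenum library. Over the regions higher in colon than ileum, the mean jejunum-duodenum difference in log2 of CPM plus 1 of ConvR mouse 3 was 0.620, with 0.207 in the next ConvR mouse. Over the regions lower in colon than ileum it was -0.393 in that mouse, with -0.148 in the next. Chance singles out about 1 in 20 groups in this way, and 5 of 38 groups tested were singled out.

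On the X chromosome, outside the autosomal comparison, 3 regions were lower in the jejunum. Their log2 differences were -1.38 at chrX:151707417-151708003 (adjusted p = 1.62e-05), -1.10 at chrX:16318953-16319692 (adjusted p = 1.89e-04) and -1.09 at chrX:103264747-103265210 (adjusted p = 0.00575, edgeR). Without ConvR mice 1 and 3 the differences were -0.96, -0.89 and -0.55, and none of the 3 passed (adjusted p = 0.887, 0.887 and 0.998, edgeR).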

How the results depend on the processing

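Of 22 autosomal calls with the mouse as a block, none was left with no replicate block (0 calls), with DESeq2 (0), in GermFree mice alone (0) or without ConvR mice 1 and 3 (0), and ConvR mice alone gave 57. Leaving out single mice gave 4 to 32 calls. Other scalings, count filters, 48 libraries, the peak score and a robust spread, the last chosen after seeing the data, gave counts within 1.5 times of 22. Within ConvR mice 51 calls became 0 with no replicate block, with DESeq2 or without ConvR mice 1 and 3, and 1 to 96 when single mice were left out (96 without GermFree mouse 7). Within GermFree mice each setting run gave 0. For the difference between models, 0 calls became 5 with loess offsets or a mean count of at least 10, 4 with autosomes only, a peak score at or above the median or the robust spread, and 0 to 18 when single mice were left out (18 without GermFree mouse 6). With the mouse as a block 94485 autosomal regions passed the count filter, against 83588 with no replicate block.

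Named regions that did not pass turned direction in 1 model alone at Prdm1 (-0.043 in ConvR), Hoxa2 (-0.16 in ConvR), Rbpjl (-0.065 in ConvR) and Pigr (-0.017 in GermFree mice). The share of the X chromosome ranged from -0.0149 to 0.0247 percentage points, jejunum minus duodenum, and that of regions of 5 kb or more from -0.0493 to 0.268, when single mice were left out. The 34 list medians moved by less than their spread between mice under each alternative run. No scaling moved the median of all regions by over 0.1. The cause of these changes was not tested. With 9 to 23 counts in the median region, the median 95% interval in edgeR reached 0.31 on the log2 scale to each side, before adjustment over all regions. The smallest called difference was -0.47, and differences of 0.74 at Hoxd3 and 0.63 at Pdx1 did not pass.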
